A study of Mus musculus with 12 samples.

Results

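The genes described here are 10 components of the PIWI-interacting RNA (piRNA) pathway and of the chromatoid body in the mouse testis. They are the PIWI genes Piwil2, Piwil4 and Piwil1, the Tudor genes Tdrd1, Tdrd6, Tdrd7 and Tdrd9, the RNA helicase genes Ddx4 and Mov10l1, and Mael. They were taken by symbol from the 37675 genes listed for each library, with earlier results of these data known. Each symbol matched 1 Ensembl gene, and all 10 passed the filter on low counts, as did 16860 genes in all.

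Whole testes were taken from C57BL/6NHsd mice, an inbred laboratory strain, during the first wave of spermatogenesis. The ages were postnatal day (PND) 7, 14, 17, 21 and 28 with 2 mice each. Age and the barcodes of the PND 7 mice are the only differences between groups that the labels give. The RNA, from which ribosomal RNA had been removed, was read on a SOLiD 4. Each PND 7 mouse, and no mouse of another age, was read under 2 barcodes, so this split and that age cannot be told apart. Here the counts of the 2 barcodes were summed and their RPKM (defined below) averaged.

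piRNAs are small RNAs that guide PIWI proteins to the transcripts of transposons and, during meiosis, to many other RNAs. Tudor proteins hold PIWI proteins in the germ granules of the cytoplasm, which appear as cement between mitochondria in spermatogonia and spermatocytes and as the chromatoid body in spermatids. Prepachytene piRNAs are made in fetal and early postnatal germ cells and are bound by PIWIL2 (MILI) and PIWIL4 (MIWI2), whereas pachytene piRNAs appear in pachytene spermatocytes and are bound by PIWIL1 (MIWI) and PIWIL2.

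The cell content of the samples was read from marker genes in RPKM (reads per kilobase of exon, scaled to the counted reads of the library). The summed level of 6 spermatocyte markers lay at 99.4 to 100.4 RPKM in the PND 7 mice, at 826 to 1286 at PND 14 and at 3388 to 3619 at PND 28. All 6 had more than 3 counts in every mouse from PND 14 on, and 5 of 6 did at PND 7, with Ldhc at or under 3 counts. After PND 14 the sum was carried by Ldhc, a lactate dehydrogenase of germ cells, whose RPKM went from 357 and 654 (PND 14) to 3269 and 2994 (PND 28). The other 5 markers summed to 99.4 to 100.3 RPKM in the PND 7 mice, 469 to 632 in the PND 14 mice and 349 to 394 in the PND 28 mice. Dmc1, a meiotic recombinase, was at 35.6 and 37.9 RPKM in the PND 14 mice against 13.3 and 15.0 at PND 28. Hormad1, of the meiotic chromosome axis, was at 59.1 and 79.5 against 41.8 and 39.4. Sycp1 was also lower in both PND 28 mice than in both PND 14 mice, and the ranges of Sycp3 overlapped. Spo11 went the other way, from 12.16 and 16.04 RPKM in the PND 14 mice to 21.99 and 23.01 at PND 28. Over the same ages 6 spermatogonial markers, each detected in every mouse, summed to 142 to 150 RPKM in the PND 7 mice, 138 to 139.8 in the PND 14 mice, 118 to 135 in the PND 17 mice, 45.8 to 59.0 in the PND 21 mice and 34.6 to 37.8 in the PND 28 mice. In the PND 7 mice Dmrt1 (62.8 and 65.5 RPKM) and Stra8 (40.1 and 41.0 RPKM) gave most of this sum. Gfra1 overlapped between ages, at 0.985 and 1.0 RPKM in the PND 7 mice and 0.61 and 1.23 at PND 28. The other spermatogonial markers were lower in both PND 28 mice than in both PND 7 mice. Sertoli cell markers summed to 451 to 519.7 RPKM at PND 7 and to 72.3 to 110.0 at PND 28. Cell content moved with age, and its part in the results was not tested. In whole testis, more cells of a type and more RNA per cell cannot be told apart.

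Some libraries stood apart. PND 14 mouse 1 had 439 RPKM of 6 summed spermatid markers, which is 4.62% of the PND 28 mean, whereas PND 14 mouse 2 had 19.8 RPKM and the PND 17 mice 19.8 and 20.6. Summed Sertoli cell markers were at 477 RPKM in PND 14 mouse 1 and 193 in mouse 2, and summed spermatocyte markers at 826 and 1286. Of the Sertoli cell markers, Clu was at 398 and 140.5 RPKM in these mice and Gata4 at 17.6 and 17.3. The part of these differences in the members' values was not tested. The epididymal gene Crisp1 reached 47.6 RPKM in PND 7 mouse 2 and 131 RPKM in PND 17 mouse 1. The other mice had at most 0.91 RPKM of it. The total count per mouse ran from 3994026 to 13559548, so that 1 count was worth 0.0697 to 0.242 CPM (a count scaled to the library size, after TMM normalization, and the unit of every member level unless RPKM is named).

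The number of members that changed was largest at the first step, and the steps differ in length. Between PND 7 and 14, 9 of 10 members were higher at the later age and none was lower, beside 13.5% of all tested genes higher and 5.43% lower. Called here means a Benjamini-Hochberg adjusted p under 0.05 over all tested genes in edgeR's quasi-likelihood test and a change of at least 2-fold. The median log2 fold change was 2.22 over the members and 0.11 over all tested genes. Piwil4 was the exception. The 9 members were also called higher without PND 14 mouse 1, PND 7 mouse 2 and PND 17 mouse 1, a choice made after the values were seen.

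**Figure D1:**
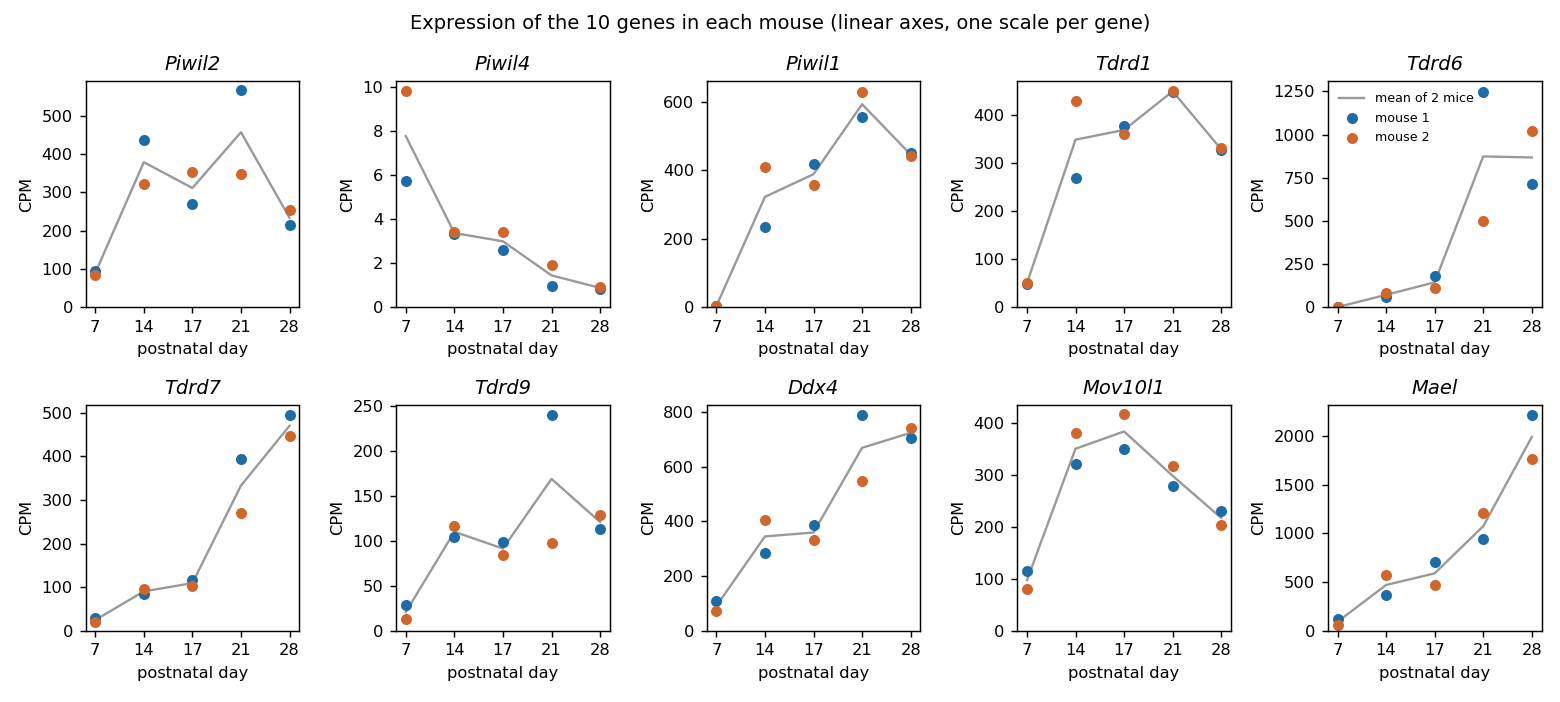
CPM of each of the 10 genes (vertical axis, linear, starting at 0, with its own scale for each gene) against postnatal day, with a point for each mouse and a line through the mean of the 2 mice. Piwil4 falls from 5.71 and 9.81 CPM at PND 7 to 0.818 and 0.923 at PND 28, and the other genes have their lowest mean at PND 7.

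Piwil2 lies on chromosome 14 (mm9 70772287 to 70828901, minus strand) and encodes the PIWI protein that slices transposon RNA in spermatogonia and continues into round spermatids. In the order mouse 1 and mouse 2, the PND 7 mice had 94.1 and 83.8 CPM, the PND 14 mice 437 and 321, the PND 17 mice 270.3 and 353, the PND 21 mice 567 and 348, and the PND 28 mice 214 and 253. Both PND 7 mice lay below all others, the ages from PND 14 to 21 overlapped, and both PND 28 mice lay below them. The transcript was already detected with 940 and 624 counts at PND 7 and was 4.26-fold higher at PND 14 (log2 fold change 2.09, SE 0.29, edgeR adjusted p = 0.000627). From PND 21 to 28 it differed by -0.97 on the log2 scale (SE 0.28), which was not called at an edgeR adjusted p of 0.0619. The same step was called lower without the filter on low counts, with only the 4 mice of the comparison and without small RNAs and mitochondrial genes.

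Piwil4 lies on chromosome 9 (14500674 to 14545177, minus strand) and encodes the nuclear PIWI protein that directs DNA methylation of transposons in fetal germ cells. It was the member with the fewest counts, 262 over all mice. The PND 7 mice had 5.71 and 9.81 CPM, the PND 14 mice 3.30 and 3.42, the PND 17 mice 2.58 and 3.39, the PND 21 mice 0.954 and 1.92, and the PND 28 mice 0.818 and 0.923. PND 7 lay above every later age without overlap. No single step was called, and PND 7/14 gave a log2 fold change of -1.20 (SE 0.52, edgeR adjusted p = 0.119). Over the whole span, from PND 7 to 28, it fell by 3.14 on the log2 scale (SE 0.61, edgeR adjusted p = 0.00112), which makes PND 7 8.81-fold higher. The PND 21 and 28 levels rest on 4 to 11 counts per mouse. Its exons overlap those of Gm10706 on the opposite strand, a gene with 3 counts in all libraries together.

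Piwil1 lies on chromosome 5 (129242121 to 129261349, plus strand) and encodes the PIWI protein of pachytene spermatocytes and round spermatids. It had 29 and 22 counts in the PND 7 mice, or 2.90 and 2.96 CPM. The PND 14 mice had 235 and 409 CPM, the PND 17 mice 419 and 357, the PND 21 mice 556 and 629, and the PND 28 mice 449 and 441. PND 7 was far below all other ages. The level rose 109-fold from PND 7 to 14 (log2 fold change 6.77, SE 0.36, edgeR adjusted p = 5.02e-06), and the ratio of pooled counts was 107, with a 95% interval of 81.5 to 144.4 that covers counting error only. None of its later steps was called. The PND 21 mean was the highest, 592 CPM, and the step from PND 17 had a log2 fold change of 0.61 (SE 0.27, edgeR adjusted p = 0.162).

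Tdrd6 lies on chromosome 17 (43752284 to 43767248, minus strand) and encodes a large Tudor protein of the chromatoid body. It was at the limit of detection at PND 7, with 1 count in mouse 1 and 0 in mouse 2, where 3 counts correspond to 0.172 CPM over both mice. The PND 14 mice had 61.3 and 80.7 CPM, the PND 17 mice 179 and 109, the PND 21 mice 1248 and 499, and the PND 28 mice 715 and 1020. Each age up to PND 21 lay above the one before without overlap, and PND 21 and PND 28 overlapped. The ratio of pooled counts between PND 14 and PND 7 was 1223 with a counting interval of 219 to 48330, so its size is poorly bounded. The test called the gene higher at this step (edgeR adjusted p = 2.2e-05) and again from PND 17 to 21, by 6.07-fold (log2 fold change 2.60, SE 0.44, adjusted p = 0.00561). Without PND 21 mouse 1 the later step was 1.80 and still called. Between PND 14 and 17 the log2 fold change was 1.02 (SE 0.42) with an unadjusted p of 0.0334 and an edgeR adjusted p of 1, and it was called only without the filter on low counts among the settings tried.

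The PIWI genes changed in proportion. Within each mouse, the share of each gene in the summed RPKM of the 3 PIWI genes was computed, which corrects for transcript length. Piwil2 held 91.5% and 86.6% at PND 7, 59.7% and 38.6% at PND 14, and 27.6% and 31.5% at PND 28. Piwil1 held 3.55% and 3.84% at PND 7, 39.9% and 61.1% at PND 14, and 72.3% and 68.4% at PND 28. Piwil4 held 5.0% and 9.55% at PND 7 and 0.377% to 0.413% at PND 14. The RPKM of Piwil1 relative to Piwil2 averaged 0.0415 in the PND 7 mice, 1.13 in the PND 14 mice, 1.60 in the PND 17 mice, 1.74 in the PND 21 mice and 2.39 in the PND 28 mice. The PND 14 mice fell on both sides of equal levels, at 0.670 and 1.59, while all later mice were at 1.22 or above. The same ratio of Tdrd6 to Piwil1 was 0.110 to 0.146 in the PND 14 mice, 0.170 to 0.238 in the PND 17 mice, 0.443 to 1.25 in the PND 21 mice and 0.889 to 1.29 in the PND 28 mice. All PND 21 and 28 mice lay above all PND 14 and 17 mice, and PND 21 overlapped PND 28.

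**Figure D2:**
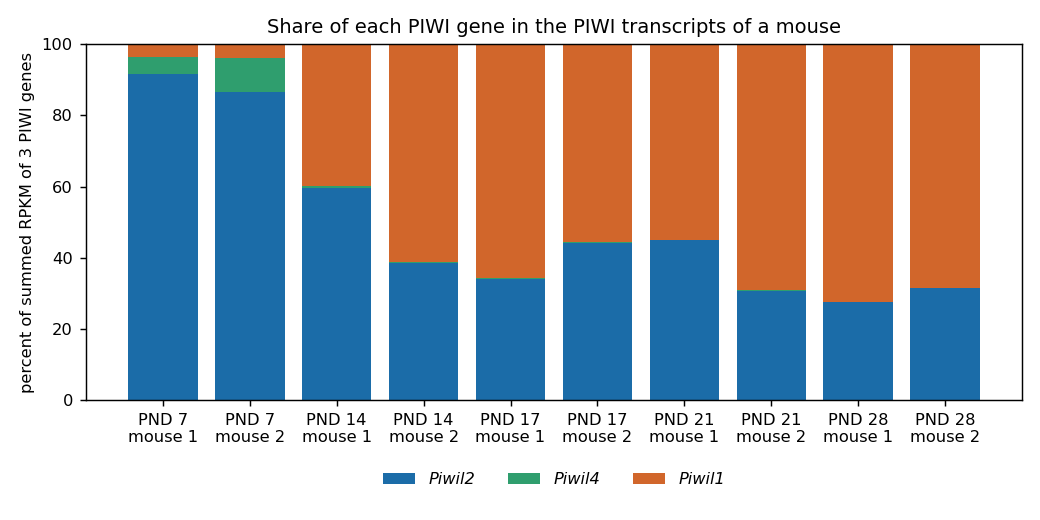
Stacked bars give the percent of the summed RPKM of Piwil2, Piwil4 and Piwil1 held by each gene in each of the 10 mice. Piwil2 holds 91.5% and 86.6% in the PND 7 mice and Piwil1 holds 72.3% and 68.4% in the PND 28 mice.

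Tdrd1, on chromosome 19 (56900699 to 56944502, plus strand), encodes a Tudor protein that binds MILI in the cement between mitochondria. For Tdrd1 the PND 7 mice had 48.5 and 50.4 CPM, the PND 14 mice 269 and 429, the PND 17 mice 378 and 359.8, the PND 21 mice 448 and 451, and the PND 28 mice 326 and 331. All later mice lay above the PND 7 mice. It was 7.05-fold higher at PND 14 (log2 fold change 2.82, SE 0.26, edgeR adjusted p = 3.92e-05), and no later step was called.

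Tdrd7, on chromosome 4 (45978206 to 46047633, plus strand), encodes a Tudor protein of the chromatoid body. The PND 7 mice had 28.9 and 20.3 CPM, the PND 14 mice 84.5 and 96.1, the PND 17 mice 117 and 102, the PND 21 mice 395 and 271, and the PND 28 mice 495 and 445. Every age lay above the one before it without overlap. It was called at the first step with a log2 fold change of 1.87 (SE 0.27, edgeR adjusted p = 0.000669) and from PND 17 to 21 with 1.60 (SE 0.26, adjusted p = 0.00503). Over the whole span it was 19.0-fold higher at PND 28.

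Tdrd9, on chromosome 12 (113209770 to 113307065, plus strand), encodes a helicase with a Tudor domain that acts with MIWI2 in transposon silencing. For Tdrd9 the PND 7 mice had 28.9 and 12.6 CPM, the PND 14 mice 103.9 and 116, the PND 17 mice 99.0 and 83.7, the PND 21 mice 239.8 and 97.7, and the PND 28 mice 114 and 128. Both PND 7 mice lay below all later ones, and among later neighbouring ages only PND 14 and 17 did not overlap. The first step was called with a log2 fold change of 2.39 (SE 0.44, edgeR adjusted p = 0.00355), or 1.94 to 3.15 with 1 mouse of the step left out, and no later step was called. Piwil4, its partner in the nuclear pathway, was not called at that step and had a fitted change of the opposite sign.

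Ddx4, on chromosome 13 (113388541 to 113442518, minus strand), encodes the helicase known as mouse Vasa homologue, a standard germ cell marker and chromatoid body component. The PND 7 mice had 108 and 73.0 CPM, the PND 14 mice 284 and 406, the PND 17 mice 388 and 331, the PND 21 mice 790.0 and 547, and the PND 28 mice 705 and 741. It was 3.81-fold higher at PND 14 (log2 fold change 1.93, SE 0.29, edgeR adjusted p = 0.00107). Both PND 21 mice lay above both PND 17 mice, but that step, 0.90 (SE 0.29), was not called (edgeR adjusted p = 0.0664). It was called with DESeq2, with RLE scaling and without PND 21 mouse 2.

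Mov10l1, on chromosome 15 (88813339 to 88885582, plus strand), encodes the helicase that binds piRNA precursors ahead of their processing. For Mov10l1 the PND 7 mice had 114 and 80.2 CPM, the PND 14 mice 320.0 and 379.8, the PND 17 mice 349 and 418, the PND 21 mice 278 and 317, and the PND 28 mice 229.7 and 204. The mean was highest at PND 17, and both PND 21 mice and both PND 28 mice lay below the PND 17 mice. The first step was called with a log2 fold change of 1.85 (SE 0.25, edgeR adjusted p = 0.000442). The later steps of -0.36 and -0.46 were not called.

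Mael, on chromosome 1 (168131516 to 168168875, minus strand), encodes Maelstrom, a protein of germ granules required for transposon silencing. For Mael the PND 7 mice had 121 and 63.6 CPM, the PND 14 mice 372 and 569, the PND 17 mice 710.2 and 470.1, the PND 21 mice 940 and 1210, and the PND 28 mice 2215 and 1768. Only PND 14 and 17 overlapped among neighbouring ages. Mael was 5.09-fold higher at PND 14 (log2 fold change 2.35, SE 0.37, edgeR adjusted p = 0.0014) and 21.5-fold higher at PND 28 than at PND 7 (log2 fold change 4.43, SE 0.41, edgeR adjusted p = 6.55e-06). Its steps of 0.86 from PND 17 to 21 and 0.89 from PND 21 to 28 did not pass singly, at edgeR adjusted p of 0.14 and 0.159.

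**Figure D3:**
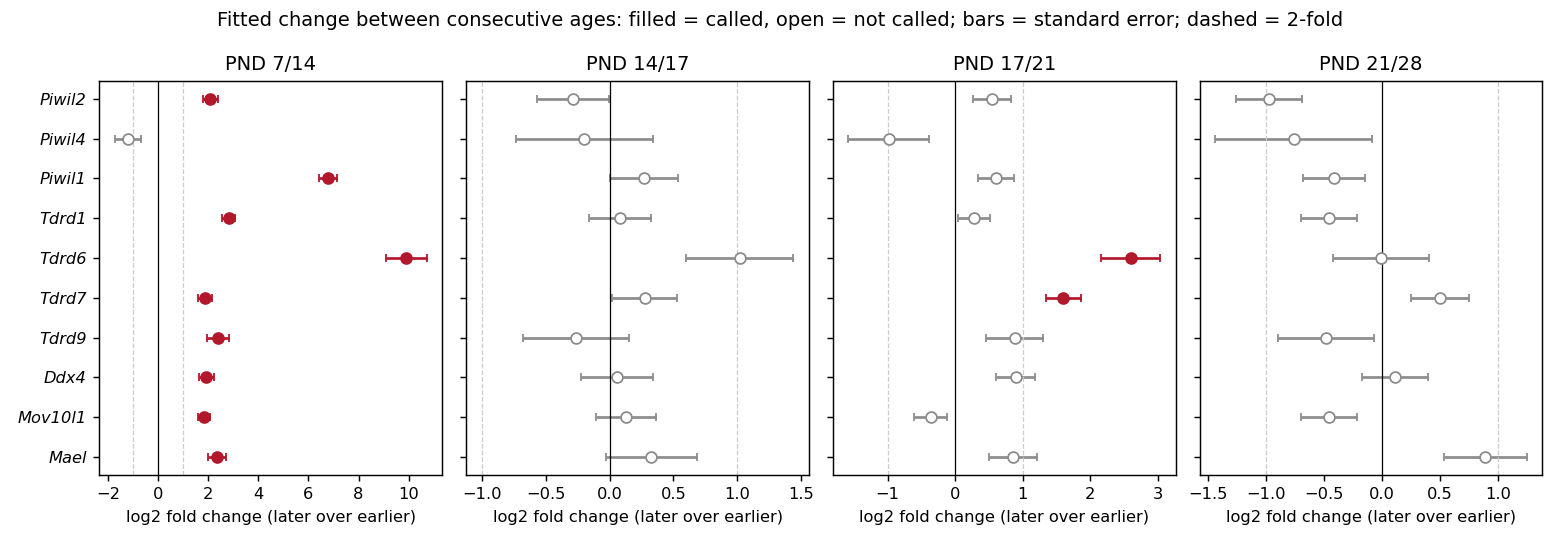
Fitted log2 fold change of each gene (horizontal axis, later over earlier age, with its own scale in each panel) at the 4 consecutive steps. Filled points are called, open points are not, and bars are the standard error (SE) derived from the test statistic. There are 9 filled points at PND 7/14, none at PND 14/17, 2 at PND 17/21 (Tdrd6 and Tdrd7) and none at PND 21/28.

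At PND 14/17, 0 of 10 members were called, as were 0% of the 16860 tested genes in edgeR. At an unadjusted p under 0.05, 1 member (Tdrd6) and 769 genes passed, and DESeq2 called 0 members and 1 gene. The fitted changes of the members lay between -0.28 and 1.02 with a median of 0.11. The libraries of this step include PND 14 mouse 1 and PND 17 mouse 1.

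At PND 17/21, 2 of 10 members (Tdrd6 and Tdrd7) were higher and none was lower, beside 9.29% of tested genes higher and 1.05% lower. The median log2 fold change was 0.74 over the members and 0.00 over all genes. Without PND 17 mouse 2 neither was called, with log2 fold changes of 2.29 and 1.51 and edgeR adjusted p of 0.0706 and 0.068, and the genes called higher over all tested fell from 1566 to 255. Without the 3 mice that hold spermatid or epididymal transcripts 3 members were called, with Mael in addition. The split of all called genes was 1566 higher to 177 lower with TMM scaling and 1282 to 342 with library totals. The PND 21 mice differed from each other, and mouse 1 was above mouse 2 by 1.32 on the log2 scale for Tdrd6 and 1.29 for Tdrd9, with mitochondrial genes taking 17.5% and 27.6% of the counts. With expressed genes split into 3 equal groups by exon length, the median difference was 0.17 in the longest group and -0.24 in the shortest. The PND 14 mice, which enter the first step, differed in a similar way, by 0.158 in the longest group and -0.221 in the shortest. Between the PND 17 mice the signs were reversed, with -0.118 and 0.112. The part of these differences in the members' values was not tested.

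At PND 21/28, 0 of 10 members were called in either direction in edgeR and in DESeq2, beside 7.37% of tested genes higher and 0.297% lower, and with 10 members this count is near the background. An unadjusted p under 0.05 was reached by 2 members, Piwil2 and Mael, in opposite directions. The median log2 fold change was -0.43 over the members and 0.03 over all genes. The spermatid markers, at 119 to 136.5 RPKM at PND 21, stood at 8534 to 10490 at PND 28.

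Across the whole span, PND 7/28, 9 members were higher and 1, Piwil4, was lower, beside 32.2% and 23.4% of all tested genes. The median was 2.87 over the members and 0.10 over all genes. Tdrd6 had the highest ratio of pooled counts, 14430 with a counting interval of 2590 to 570100. Mov10l1 had the smallest rise, 2.23-fold, and without PND 7 mouse 2 it fell below 2-fold (log2 fold change 0.92, edgeR adjusted p = 0.02). Piwil2 was next with 2.62-fold.

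The signed change from PND 7 to 14 minus the signed change from PND 17 to 21 was tested directly. These steps share no mice and span different numbers of days, for which the changes were not scaled. A fall at the later step adds to the difference, as for Mov10l1. The signed change was larger at the early step for 5 of 10 members, beside 4.97% of all tested genes, and larger at the later step for none, beside 1.41%. The difference was 6.16 on the log2 scale for Piwil1 (SE 0.43, edgeR adjusted p = 9.55e-05). It was 2.53 for Tdrd1 (SE 0.35, edgeR adjusted p = 0.002) and 2.21 for Mov10l1 (SE 0.34, edgeR adjusted p = 0.00402). Tdrd6 also passed (edgeR adjusted p = 0.00224), although the size of its fitted difference, 7.31, depends on the prior count because PND 7 has 1 count. Piwil2 passed narrowly with 1.54 (SE 0.40, edgeR adjusted p = 0.047). It failed in 10 of the alternatives, more than it passed, including a scaling by RLE (1.40, edgeR adjusted p = 0.0726). With 1 mouse left out its value was 1.25 to 1.90. For Tdrd7 the difference was 0.27 (SE 0.36, adjusted p = 0.704). Ddx4, Tdrd9 and Mael had values of 1.03, 1.51 and 1.48 that did not pass. Piwil4, with a fitted fall at both steps, had -0.22.

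The same steps were called on the deposited RPKM values with limma by thresholds taken from the study's methods, a p of at most 0.01, a 2-fold change and a difference of 10 RPKM. The methods do not state the transformation, the scale of the fold change or an adjustment, and log2(RPKM + 1), a fold on that scale and an unadjusted p were chosen here. The same 9 members were higher at PND 7/14, where these criteria called 3.65% of genes. No member was called at PND 14/17, where 0.0149% of genes were, Tdrd6 and Tdrd7 were higher at PND 17/21, where 2.88% were, and no member was called at PND 21/28, where 3.15% were. Piwil4, with 2.01 RPKM at most, cannot reach a difference of 10 RPKM.

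Levels were compared between members in RPKM. Mael had the highest level at every age, with means of 62.6, 344, 412, 685.5 and 1093 RPKM from PND 7 to 28, and Ddx4 the second, with 33.9, 137, 136, 236 and 216. Their ranges did not overlap at any age. Below them the order changed. At PND 7 it ran Mov10l1 (24.3), Piwil2 (19.3), Tdrd1 (9.72), Tdrd7 (6.48), Tdrd9 (4.59), Piwil4 (1.56), Piwil1 (0.798) and Tdrd6 (0.0075), where Mov10l1 overlapped Ddx4 and Tdrd9 overlapped Tdrd7. At PND 28 it ran Tdrd6 (104), Tdrd7 (99.1), Piwil1 (95.8), Tdrd1 (51.2), Mov10l1 (43.7), Piwil2 (40.4), Tdrd9 (21.3) and Piwil4 (0.14). In that order Tdrd6 overlapped Tdrd7, Tdrd7 overlapped Piwil1, and Mov10l1 overlapped Piwil2. Tdrd6 went from last place at PND 7 to the third at PND 28, and Mov10l1 and Piwil2 went down.

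Set against Ddx4 in the same mouse, the members fell into different courses. The RPKM of Mael relative to Ddx4 averaged 1.81 at PND 7 and 5.09 at PND 28. Tdrd7 averaged 0.191 at PND 7, 0.189 at PND 14 and 0.461 at PND 28. Mov10l1 stayed between 0.608 and 0.854 in all mice up to PND 17 and was 0.186 and 0.220 at PND 28. Piwil2 averaged 0.581 at PND 7 and 0.187 at PND 28, and Tdrd1 was highest at PND 17, 0.540, and was 0.238 at PND 28. The PND 28 mice lay outside the PND 7 range for Mael, Tdrd7, Mov10l1 and Piwil2. These ratios are descriptions and were not tested.

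**Figure D4:**
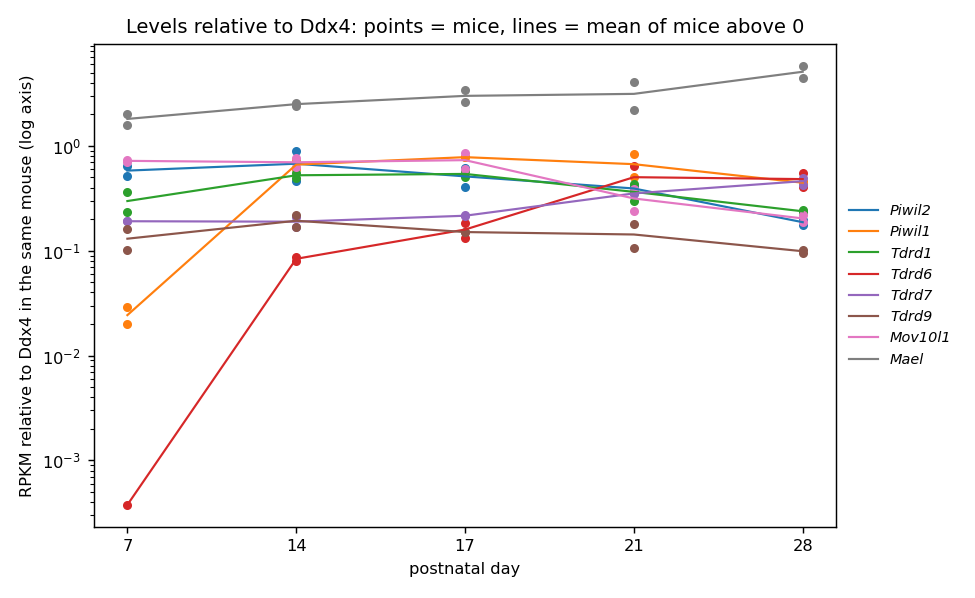
RPKM of 8 genes divided by that of Ddx4 in the same mouse (log axis) against postnatal day, with points for mice and lines through the mean of mice above 0. At PND 7 Tdrd6 is drawn for the single mouse with a count. Mael climbs from a mean of 1.81 to 5.09, and Mov10l1 drops from 0.719 to 0.203.

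The number of exons with more than 10 reads, as deposited for each library, was 21 or 22 of 22 for Piwil1 in every mouse from PND 14 on and 0 in all PND 7 libraries. For Tdrd6 it was 0 at PND 7, 8 of 12 in both PND 14 mice and 11 or 12 of 12 at PND 28. Piwil4 had no such exon from PND 14 on, and 4 of 29 in each barcode of PND 7 mouse 2. That mouse had 73 Piwil4 counts in all, too few for 4 separate exons in each barcode without shared reads. The exon numbers are therefore given as deposited and not as separately covered exons. They rise with depth and are not corrected for it.

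The sequence just upstream of the transcription start is shown for 4 members called higher at the first step that hold the E-box described next, for Tdrd7, which was called but does not hold it, and for Piwil4, which was not called and does not hold it. Tdrd9 and Ddx4, which were called and hold it, are not shown. RefSeq (GRCm38.p6) holds such a window for 8 of the 10 members, not for Piwil2 and Tdrd6, and each was found once in mm9. Capitals mark CACGTG, an E-box that reads the same on both strands, and the letters GGCAGTT or AACTGCC, a core of the site bound by MYB proteins. The motifs and the windows shown were chosen after the sequences were seen. Bases that lie inside the gene model are left out, and all sequences read 5′ to 3′ on the strand of the gene.
Piwil1, chr5:129241871-129242120, plus strand: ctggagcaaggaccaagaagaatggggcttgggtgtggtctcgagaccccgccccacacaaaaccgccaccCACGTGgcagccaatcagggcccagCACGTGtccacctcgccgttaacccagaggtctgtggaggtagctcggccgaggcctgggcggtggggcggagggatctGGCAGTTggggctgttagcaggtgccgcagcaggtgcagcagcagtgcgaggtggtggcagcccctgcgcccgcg
Tdrd1, chr19:56900449-56900698, plus strand: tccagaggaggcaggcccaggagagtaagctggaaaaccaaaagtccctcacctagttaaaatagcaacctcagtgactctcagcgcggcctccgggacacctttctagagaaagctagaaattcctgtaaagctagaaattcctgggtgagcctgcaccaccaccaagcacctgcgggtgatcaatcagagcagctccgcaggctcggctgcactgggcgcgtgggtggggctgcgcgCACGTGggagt
Mov10l1, chr15:88813174-88813338, plus strand: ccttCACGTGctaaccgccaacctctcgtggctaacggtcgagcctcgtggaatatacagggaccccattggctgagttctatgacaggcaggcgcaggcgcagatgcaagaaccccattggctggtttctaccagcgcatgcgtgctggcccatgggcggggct
Tdrd7, chr4:45977957-45978205, plus strand: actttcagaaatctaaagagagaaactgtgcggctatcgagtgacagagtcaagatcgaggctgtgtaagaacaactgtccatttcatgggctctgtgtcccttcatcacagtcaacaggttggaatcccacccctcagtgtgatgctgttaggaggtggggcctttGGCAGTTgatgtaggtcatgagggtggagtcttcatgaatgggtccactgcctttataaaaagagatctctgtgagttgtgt
Mael, chr1:168168876-168169125, minus strand: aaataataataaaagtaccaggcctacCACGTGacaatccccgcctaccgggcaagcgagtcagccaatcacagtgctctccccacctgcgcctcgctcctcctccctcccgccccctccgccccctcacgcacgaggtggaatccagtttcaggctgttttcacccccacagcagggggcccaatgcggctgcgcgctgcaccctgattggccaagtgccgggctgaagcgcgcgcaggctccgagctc
Piwil4, chr9:14545178-14545366, minus strand: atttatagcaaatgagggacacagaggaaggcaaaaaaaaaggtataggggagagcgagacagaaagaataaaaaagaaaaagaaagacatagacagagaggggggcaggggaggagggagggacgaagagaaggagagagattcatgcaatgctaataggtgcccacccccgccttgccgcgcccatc
CACGTG was present in the 250 bases before the start of 6 of the 8 members, namely Piwil1, Tdrd1, Tdrd9, Ddx4, Mov10l1 and Mael, and in 6.86% of the 27018 genes with a window of that length. Piwil1 and Tdrd9 held it at 2 places. Tdrd7 and Piwil4 did not hold it. The MYB letters were present in Piwil1 and Tdrd7, and in 3.86% of genes. Other forms of a MYB site were not searched and are not marked. A further search for GGCGGGAA or TTCCCGCC, letters of the site bound by E2F proteins, found 1 member, Ddx4, beside 2.12% of genes. These are matches of letters and not evidence of binding.

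Other genes of the pathway were read from a list of 42, all found and 41 tested (Nanos2 had too few counts). At PND 7/14, 20 were called higher, beside 13.5% of all tested genes, and none lower, with a median log2 fold change of 0.95. At PND 14/17 none was called in edgeR, with 3 at an unadjusted p under 0.05. At PND 17/21 there were 6 higher, beside 9.29%, and none lower (median 0.45), and at PND 21/28 6 higher, beside 7.37%, and 1 lower, beside 0.297% (median -0.03). The 7 calls at PND 21/28 went to 3 without PND 21 mouse 1 and to 4 without PND 21 mouse 2. Across PND 7/28, 22 were higher, beside 32.2%, and 3 lower, beside 23.4%, with a median of 1.81, and both this median and that of PND 7/14 stayed the same with genes at 0 counts set to their lower bound.

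**Figure D5:**
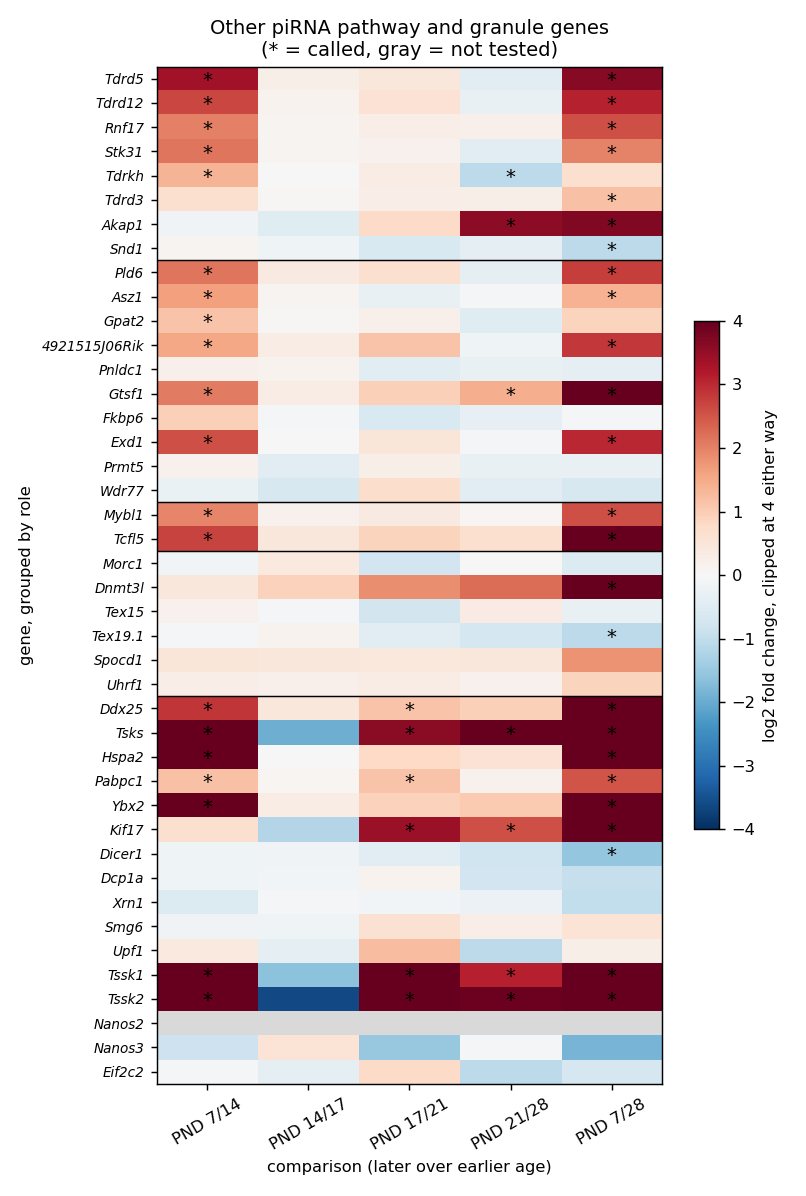
Fitted log2 fold change of 42 other piRNA pathway and granule genes (rows, grouped by role) at the 4 steps and across the whole span (columns), colored from blue for lower to red for higher at the later age and clipped at 4. Stars mark called genes (20 for PND 7/14, 6 for PND 17/21, 7 for PND 21/28, 25 for PND 7/28), and gray marks Nanos2, which was not tested.

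Among the other Tudor genes 5 of 8 were higher at PND 14, beside the same 13.5% of all tested genes, namely Tdrd5, Tdrd12, Rnf17, Stk31 and Tdrkh. Tdrd5 was at 19.2 and 18.0 CPM at PND 7 and at 146 and 236 at PND 14 (log2 fold change 3.35, SE 0.27, edgeR adjusted p = 2.1e-05). Tdrkh, which anchors to mitochondria and binds PIWI proteins, had 20.5 and 16.4 CPM at PND 7 and went from 66.8 and 51.2 CPM at PND 21 to 25.8 and 31.9 CPM at PND 28. It fell by 1.04 on the log2 scale from PND 21 to 28 (SE 0.25, edgeR adjusted p = 0.0294), the only fall called in the list at a single step, and was not called with DESeq2, with RLE scaling or without any 1 of the PND 21 and 28 mice. Akap1, an anchor protein of the mitochondrial surface, was between 18.4 and 35.1 CPM in all mice up to PND 21 and at 383 and 399 at PND 28 (log2 fold change 3.59, SE 0.28, edgeR adjusted p = 0.000196). Snd1 was called lower over the whole span (-1.03, adjusted p = 0.00343), a call lost with DESeq2 and RLE scaling.

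Of 10 processing and mitochondrial factors, 6 were higher at PND 14, beside 13.5% of all tested genes, namely Pld6, Asz1, Gpat2, Gtsf1, Exd1 and Henmt1, which the annotation names 4921515J06Rik. Gpat2 was not called without PND 7 mouse 1 or PND 14 mouse 2 (0.96 each), and 4921515J06Rik was called without PND 7 mouse 1 (2.71) but not without any other mouse of the step, the lowest value being 0.96. Exd1, a partner of Tdrd12, was at 5.71 and 4.43 CPM at PND 7 and at 25.9 and 35.0 at PND 14 (log2 fold change 2.57, SE 0.28, edgeR adjusted p = 0.000109). Gtsf1 was the only one of them called again later, from PND 21 to 28 (log2 fold change 1.46, edgeR adjusted p = 0.00342). The transcription factor genes Mybl1, the regulator of pachytene piRNA loci and of several pathway genes, and Tcfl5 were both higher at PND 14. Mybl1 was at 45.9 and 43.0 CPM at PND 7 and 151 and 192 at PND 14 (log2 fold change 1.95, SE 0.22, edgeR adjusted p = 0.00013). It was at 249.7 and 282 CPM at PND 28. Of 6 silencing factors none was called at a single step. Over the whole span Dnmt3l was higher from 3 and 0 counts, and Tex19.1 was lower (-1.06, edgeR adjusted p = 0.00622), which was lost with DESeq2 and RLE scaling.

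Of 15 granule genes tested, 7 were called higher at PND 14 than at PND 7, beside 13.5% of all tested genes, 6 at PND 21 than at PND 17, beside 9.29%, and 4 at PND 28 than at PND 21, beside 7.37%. The 6 calls at PND 17/21 are those of the whole list, whose count went to 0 without PND 17 mouse 1, to 1 without PND 17 mouse 2 and to 2 without PND 21 mouse 1. Hspa2, a chaperone of spermatocytes, was at 21.1 and 25.1 CPM at PND 7 and 527 and 615 at PND 14. Ybx2, which binds stored germ cell RNA, was at 8.71 and 3.23 CPM at PND 7 and 196 and 270.3 at PND 14. The kinase genes Tssk1 and Tssk2 and their substrate Tsks had 0 counts in both PND 7 mice. At PND 14 Tssk2 was at 5.28 CPM in mouse 1 and 0.131 in mouse 2, Tssk1 at 6.49 and 1.05, and Tsks at 6.16 and 0.920, with the higher value each time in the library with spermatid markers. Without that library Tssk2 was not called at PND 7/14, while Tssk1 and Tsks were. Tssk2 was also not called without either PND 7 mouse. At PND 21 Tssk2 was at 19.6 CPM in each mouse and at PND 28 at 295 and 299.8, at least 1728-fold higher than PND 7 by a floor of 3 counts over both mice. Tssk1 and Tsks were at least 1212-fold and 1186-fold higher at PND 28. Dicer1, the nuclease of microRNA biogenesis, was at 157 and 158 CPM at PND 7 and 56.8 and 50.8 at PND 28 (log2 fold change -1.55, SE 0.22, edgeR adjusted p = 0.000143).

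The genes whose log2 CPM followed a member most closely over the 10 mice were listed by Pearson's r among the 10355 tested genes that averaged 10 CPM or more. The mice share ages, so r mostly reflects the differences between ages and is given as a description. For Piwil1 they were 1700006A11Rik and Mtl5 (both r = 0.999) and Tdrd5 (0.997), against a median of 0.226 over all genes. Mtl5 averaged 3.38 CPM in the PND 7 mice and 403 in the PND 21 mice. For Tdrd6 they were Dnahc6, Ttc18 and Baz1a (each r = 0.997, median 0.198), of which Dnahc6, a dynein gene, averaged 0.285 CPM in the PND 7 mice and 213 in the PND 21 mice. For Piwil2 they were Gtf2a1 (0.977), Psmd1 and Adprh (both 0.959, median 0.155), whose changes were smaller, as Gtf2a1 had means of 33.5 CPM at PND 7 and 72.8 at PND 21. For Piwil4 they were Snx21 (0.991), Sec24d (0.989) and Mat2b (0.988, median -0.167), of which Snx21 went from a mean of 33.8 CPM at PND 7 to 8.10 at PND 28.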

How the data were processed

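Testis RNA depleted of ribosomal RNA was read as 50-base fragments on the SOLiD 4. The authors aligned them to mm9 with LifeScope 2.1, discarded ribosomal, transfer RNA and repeat reads and any with over 10 alignments, and deposited per Ensembl gene a raw count of exonic reads, an RPKM and, as a score, the number of exons with more than 10 reads. Use of strand is not given in the sources used here. Symbols came from GENCODE M1, which held 37310 of the genes with the same start and end. Henmt1 was matched by a RefSeq synonym after its symbols were not found.

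Counts were tested with edgeR 4.0.16 in R 4.3.3 (TMM, filterByExpr, quasi-likelihood, all 10 mice in 1 fit). Each SE was derived from the test, as the absolute log2 fold change over the square root of its F statistic. The fit was tested on simulated data. RPKM was tested with limma 3.58.1, and DESeq2 1.42.0 was an alternative. Scaling, filters, the mice entered, mouse number as a block, the PND 7 barcodes, pseudocounts and single mice left out were also varied. Where the text says 3 mice, they are those with spermatid or epididymal transcripts, left out after the values were seen. In the main fits p-values rest on a spread between mice estimated over all ages, with 2 mice per age, and shared in part between genes. They do not measure the spread of only the 2 ages compared. An exact permutation test of 2 mice against 2 cannot pass 0.05 (smallest p 0.333). Intervals and floors cover counting error only.

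The members and lists were chosen with earlier results of these data known. All members are named. From the wider list the text names the 3 largest rises and falls among the called genes of each comparison and genes set beside members by role. Sequences are from RefSeq. Figures used Python 3.11.15 and matplotlib 3.10.9.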

Additional observations from a re-analysis of the deposited data

How the results depend on the processing

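With a mouse left out, when the lone mouse of its age was assumed to vary like the other ages, the member calls ranged from 9 to 9 at PND 7/14 and from 9 to 10 at PND 7/28. At PND 14/17 the count went from 0 to 1 member and, in the wider list, to 3 without the filter on low counts, and the ranges with a mouse left out were 0 to 0 and 0 to 3, the latter without PND 14 mouse 2. At PND 17/21 the members ranged from 0, without PND 17 mouse 2, to 3 (also 3 with DESeq2), and the wider list from 0, without PND 17 mouse 1, through 1 without PND 17 mouse 2 and 2 without PND 21 mouse 1, to 6. At PND 21/28 the count was 1 member without the filter, with only the mice of the comparison, and without small RNAs and mitochondrial genes, and 0 to 0 with a mouse left out. The wider list ranged from 18 to 20 at PND 7/14, from 3 (without PND 21 mouse 1; 4 without mouse 2) to 5 at PND 21/28 and from 25 to 27 at PND 7/28. The timing test called 5 members, 8 without the filter and 4 to 6 with a mouse left out. By the RPKM criteria the member counts were 0 at PND 17/21 with an adjusted p and 1 at PND 21/28 among genes of 1 RPKM in 2 mice, and ranged from 8 to 9 at PND 7/14, 0 to 0 at PND 14/17, 0 to 3 at PND 17/21 (0 without PND 17 mouse 2) and 0 to 1 at PND 21/28 (1 without PND 21 mouse 2). The causes were not tested. Of the single-gene values, 1116 kept their side of the threshold, 72 lost it and none changed direction.

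Scaling by library totals moved the median of all genes by -0.10 at PND 17/21, -0.22 at PND 21/28 and -0.32 at PND 7/28, and RLE moved it by 0.10 at PND 17/21 and 0.16 at PND 7/28. Mov10l1 at PND 7/28 was then 0.84 with library totals, under 2-fold, and 0.92 without the 3 mice. The labels do not say that same-numbered mice were paired. Correlations of same-numbered deviations ran from -0.25 to 0.40, the highest between PND 14 and PND 21. A library effect shared by these ages was not tested. With mouse number as a replicate block 9, 0, 2, 0 and 10 members were called in the 5 comparisons, and 4 in the timing test, where Piwil2 had 1.56 and an edgeR adjusted p of 0.0622. Depth limits Piwil4 and the PND 7 levels of Tdrd6.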
